A study of Danio rerio with 6 samples.

Results

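Microtubule genes were examined in whole zebrafish larvae: the tubulin subunits, the proteins that fold, nucleate and bind tubulin, and the kinesin and dynein motors that run on the polymer. The members were all probesets of the array whose annotated gene symbol begins with the stem of a tubulin, kinesin, stathmin, dynein, dynactin or end-binding protein name, or is that of a tubulin cofactor. This gave 78 of 15502 tested probesets, and 74 of them carried 1 symbol, for 53 genes. The other 4 carried several symbols and are not named for 1 gene: 3 were shared among the tuba1 paralogs (tuba1a, tuba1b, tuba1c), and 1 was shared by a gamma-tubulin complex gene and an unrelated gene.

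The 2 groups were gnotobiotic C32-strain larvae, both collected 6 days post-fertilization. Colonized larvae were germ-free until day 3 and then carried the microbial community of conventionally reared fish from day 3 to day 6. Germ-free larvae, the controls, received no microbes. Each group had 3 pools of 28 to 80 intact larvae, each on its own 1-colour Affymetrix array.

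Microtubules are hollow polymers of alpha and beta tubulin dimers, and vertebrate genomes hold several genes (isotypes) for each subunit. Some isotypes are expressed in nearly all cells, whereas others are prominent in neurons, where microtubules fill axons and dendrites; the tuba1 promoter of fish is widely used to mark developing and regenerating neurons. Kinesins walk mostly towards the plus end and cytoplasmic dynein towards the minus end, carrying vesicles, organelles and, in dividing cells, chromosomes. Cells also adjust tubulin mRNA stability to the amount of free tubulin dimer.

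Median intensity per array lay between 86.0 and 93.8, and pools of a group correlated with each other at 0.977 to 0.990 on average. As a guide to RNA integrity, the 3' and 5' actin control probesets were compared on the log2 scale, with 32 added to each intensity. The 3' one exceeded the 5' one by 2.95, 2.97 and 2.77 in colonized pools and 2.34, 2.62 and 2.45 in germ-free pools. With 32 added, the difference also depends on the actin level, so it does not measure RNA integrity alone. This difference did not overlap between the groups, and its part in the results below was not tested. Markers of muscle, gut, eye and brain were all measured, as whole larvae hold these tissues; the dividing-cell list was measured too. In whole larvae, fewer cells of a type and less RNA per cell cannot be told apart.

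Colonized larvae had lower levels of the tubulin genes tubb5 and tuba2 and of tuba1 paralogs, each on at least 1 probeset; the other tubulins and nearly all motors and microtubule regulators were not called. Of the 78 probesets, 6 fell and 0 rose at an adjusted p under 0.05 (limma, adjusted over all 15502 probesets). Over all tested probesets, 0.413% were called lower and 1.28% higher, or 1.7% in either direction. Of the 78 changes 46 lay below 0, against 44.8% of all probesets. The 6 were 2 probesets of tubb5, 1 of tuba2, 2 shared by tuba1 paralogs and 1 of the dynein heavy chain gene dync1h1. At an unadjusted p under 0.05, 13 members were lower and 1 higher, against 4.68% and 8.54% of all probesets. The 22 alpha and beta tubulin probesets held 5 of the 6 calls. In 9 of the 22, every colonized pool lay below every germ-free pool, and in 0 every colonized pool lay above. Over all probesets these shares were 7.08% and 12.5%. The 9 came only from tubb5, tuba2, tubb2 and the tuba1 paralogs, with more than 1 probeset for all but tubb2. They are therefore not 9 separate genes, and the count does not describe the tubulin family as a whole. The median log2 change, colonized minus germ-free on log2(intensity + 32), was -0.21 for the 22, -0.0059 for the other 56 members and 0.018 for all probesets.

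Among beta tubulins, tubb5 had the largest fall. On its brighter probeset, its intensity was 148, 167 and 235 in colonized pools, against 371, 274 and 347 in germ-free pools. The groups did not overlap, and colonized replicate 3 was nearest to the germ-free pools. The colonized mean was 55.4% of the germ-free mean (log2 change -0.76 ± 0.16 SE, limma adjusted p = 0.0430). The dimmer tubb5 probeset read 43.6, 43.3 and 56.5 in colonized pools, against 76.3, 75.7 and 101 in germ-free pools. It was called too, with a colonized mean at 56.6% of germ-free (log2 change -0.54 ± 0.11, limma adjusted p = 0.0441). Both calls lie just under the threshold.

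The other beta tubulins were not called. The single tubb2 probeset had 98.97, 107 and 100.5 in colonized pools, against 156, 127 and 158 in germ-free pools, again without overlap (log2 change -0.41 ± 0.10, limma adjusted p = 0.0861). The tubb2b gene, whose mammalian counterpart is abundant in developing neurons, read 1169, 1119 and 1559.9 in colonized pools, against 1678, 1461 and 1636 in germ-free pools. Here colonized replicate 3 lay above the lowest germ-free pool, so the groups overlapped (log2 change -0.32, adjusted p = 0.297; -0.33 and 0.289 on its second probeset). For tubb4b, whose mammalian counterpart is widely expressed and also builds cilia, values ran the other way: 2223, 2173 and 2319 in colonized pools, against 2203, 1983 and 2010.2 in germ-free pools. The change of this brightest tubulin probeset was 0.12 (95% interval -0.046 to 0.28, limma adjusted p = 0.540), that of the second tubb4b probeset 0.080, and that of tubb4bl 0.026. Both tubb4b values turn negative, to -0.021 and -0.023, after quantile normalization. The brightest tubb4b probeset and the second tubb2b probeset have the _x_at suffix, which marks probes that can match other transcripts. Which transcripts they read was not tested.

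Among alpha tubulins, tuba2 had the smallest adjusted p of all members. Its brightest probeset had 559, 521 and 559 in colonized pools, against 873, 837 and 822 in germ-free pools. The 2 groups were tight and far apart, and the colonized mean was 64.7% of the germ-free mean (log2 change -0.60 ± 0.09 SE, limma adjusted p = 0.00600). The second tuba2 probeset read 89.2, 93.5 and 89.5 in colonized pools, against 182, 120 and 99.9 in germ-free pools. It did not overlap between groups but was not called (log2 change -0.41 ± 0.16, adjusted p = 0.296), and germ-free replicate 1 stood apart from the other two germ-free pools; without it the change was -0.21. The third tuba2 probeset was dim, at 31.4, 33.9 and 23.0 in colonized pools and 24.9, 21.2 and 17.3 in germ-free pools, and its change was positive (0.21 ± 0.10, adjusted p = 0.399).

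The tuba1 paralogs lie side by side in the zebrafish genome, in the order tuba1c, tuba1a, tuba1b, with 0 protein-coding genes between neighbours in the RefSeq annotation of GRCz12tu. They were read by 5 probesets, of which 3 cannot be given to 1 paralog. The brightest, annotated to tuba1c and tuba1b, had 1172, 1273 and 1518 in colonized pools, against 1954, 1848 and 1787 in germ-free pools. Every colonized pool lay below every germ-free pool, and the probeset fell to a colonized mean of 70.9% of germ-free (log2 change -0.49 ± 0.10, limma adjusted p = 0.0384). A dimmer one, annotated to tuba1a and tuba1b, had 98.8, 97.1 and 110.0 in colonized pools, against 198, 149 and 188 in germ-free pools. It fell to 57.2% of the germ-free mean (log2 change -0.64 ± 0.11, limma adjusted p = 0.0186).

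The remaining tuba1 probesets missed the threshold. The third shared probeset, whose _x_at suffix marks probes that can match other transcripts, had 663, 670.2 and 829 in colonized pools, against 1049, 895 and 1046 in germ-free pools (log2 change -0.45, adjusted p = 0.0861). Of 2 probesets annotated to tuba1b alone, the _x_at one had 260.2, 259 and 335 in colonized pools, against 432, 361 and 423 in germ-free pools (log2 change -0.47, adjusted p = 0.104). The other tuba1b probeset showed overlapping groups, at 250.3, 252 and 281 in colonized pools and 264, 244 and 291 in germ-free pools (log2 change -0.025, adjusted p = 0.945). The 2 probesets of tuba1b thus gave different values, and which of the paralogs each reads was not tested.

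The other alpha tubulins were tuba4l, tuba5, tuba7l, tuba8l2, tuba8l3 and tuba8l4, with 1 probeset each, and their groups overlapped in every case. The brightest, tuba8l4, had 1739, 1884 and 2159 in colonized pools, against 1958, 1896 and 1804 in germ-free pools. Its change was 0.026 with a 95% interval of -0.17 to 0.23, and it turned to -0.066 after quantile normalization. For tuba8l2, at 832, 857 and 884 in colonized pools and 862, 864 and 834 in germ-free pools, the change was 0.0070 with an interval of -0.17 to 0.19. The tuba5 gene was the most variable, at 517, 649.9 and 802 in colonized pools and 610.5, 546 and 641 in germ-free pools (change 0.11, -0.042 without colonized replicate 3). The other three had changes of -0.11 (tuba4l), -0.057 (tuba8l3) and 0.037 (tuba7l).

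**Figure D1:**
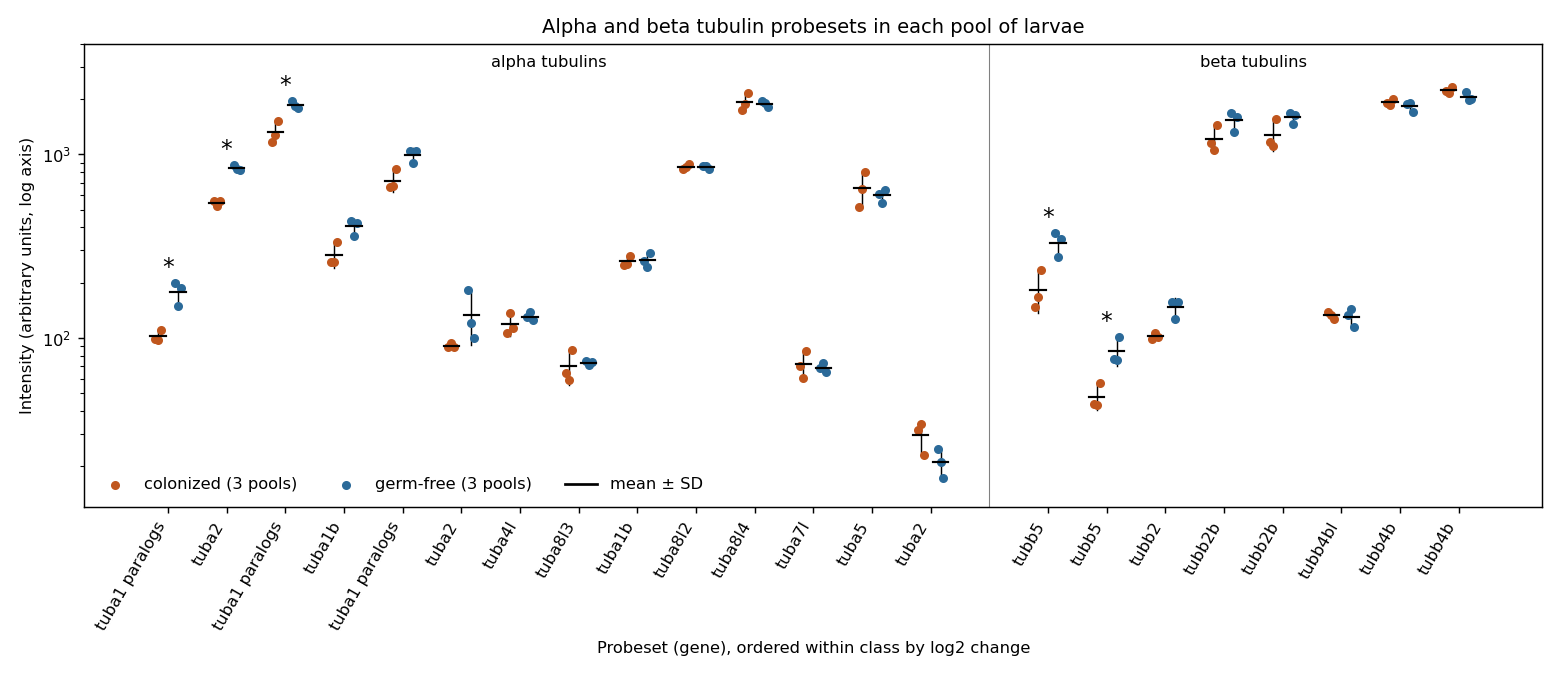
Intensity (log axis) of the 22 alpha and beta tubulin probesets in each pool, colonized left and germ-free right, ordered within class by log2 change; points are pools, black bars mean ± SD, n = 3 pools per group, and stars mark an adjusted p under 0.05. The 5 starred probesets belong to tubb5, tuba2 and the tuba1 paralogs, while tuba8l2, tuba8l4 and tubb4b overlap between the groups.

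Whether probesets moved unequally was examined with the log2 difference between 2 probesets within each array, compared between groups in 11 pairs by two-sided exact permutation tests, whose smallest possible p is 0.1 with 3 pools against 3. Of these pairs, 6 were chosen after the values had been seen: the dync1h1 pair, and the 5 called tubulin probesets each against the brightest tubulin of its class that was not called. Against tuba8l4, the called alpha tubulin probesets moved by -0.52 to -0.67, and against the _x_at probeset of tubb4b the tubb5 probesets by -0.66 and -0.88. In these 5 pairs the colonized pools all lay below the germ-free pools, and each exact p was 0.1, the smallest the design allows (0.157 adjusted over the 11 pairs). In each, the first probeset was picked as called lower and its partner as not called, so a difference was largely set by that choice. These 5 tests therefore cannot show whether isotypes moved unequally. The remaining pairs also started from a tubulin probeset that had been called. Within tuba2, the called and the dimmest probeset differed by -0.81 (exact p = 0.1, adjusted 0.157). The called and the second one differed by -0.19 (exact p = 0.4). The partners in these tuba2 pairs were not called, so a difference was partly set by starting from the called probeset. The 2 tubb5 probesets differed by -0.22 (exact p = 0.3). The brighter and the dimmer tubb5 probeset differed from the called tuba2 probeset by -0.16 and 0.057 (exact p = 0.7 in both). All 11 differences were taken after adding a constant to each intensity, which understates changes of dim probesets. Colonized mean intensity was 55.4% and 56.6% of germ-free on the brighter and dimmer tubb5 probesets, and 64.7% on the called tuba2 probeset. Brightness thus enters the -0.22 and the 0.057, and neither shows how unequally the probesets moved.

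Proteins that nucleate, fold or bind tubulin were not called. Gamma tubulin, encoded by tubg1, seeds new microtubules in a ring complex with the tubgcp proteins; the 5 probesets of this role had changes from -0.080 (tubg1, 151.6, 170.2 and 188 in colonized pools and 183, 171 and 189.7 in germ-free pools) to 0.15 on the probeset shared by 2 genes. The smallest adjusted p of these was 0.557. The changes of tubgcp2 (-0.0033) and of 2 tubgcp3 probesets (-0.077 and -0.0024) lay between. The tubulin cofactors bring newly folded tubulin into dimers: tbca, which binds beta tubulin, changed by 0.084, tbcb, which binds alpha tubulin, by 0.074, and tbcc and tbce by -0.014 and -0.034. For these 4 genes the adjusted p was 0.781 or more. At an unadjusted p under 0.05, 0 of these 9 probesets differed, against 4.68% lower and 8.54% higher over all probesets.

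Stathmins bind free tubulin dimers and promote disassembly, and stmn2a and stmn4 are neuronal. The brightest, a stmn1b probeset, had 1289.8, 1198 and 1192 in colonized pools, against 1259, 1076 and 1267 in germ-free pools, so that the groups overlapped (log2 change 0.033, 95% interval -0.17 to 0.23). The stmn4 gene had 476, 426 and 489.5 in colonized pools, against 521, 510.3 and 537 in germ-free pools. Its groups did not overlap, but the change was small and not called (-0.16 ± 0.09, adjusted p = 0.495). For stmn2a the change was -0.19 ± 0.12 (adjusted p = 0.561), and for a second stmn1b probeset -0.11 ± 0.21. The end-binding protein genes mapre1a and mapre1b, whose products track growing plus ends, changed by 0.028 and -0.11 and were not called (adjusted p = 0.942 and 0.690). At an unadjusted p under 0.05, 0 of these 6 probesets differed, against 4.68% lower and 8.54% higher over all probesets.

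Kinesins gave no call. Of 24 probesets for 15 genes, 12 had a change below 0 and 12 above, with a median of 0.00088. At an unadjusted p under 0.05, 0 differed, against 4.68% lower and 8.54% higher over all probesets. Over all probesets 1.7% were called, so 0 calls among 24 does not set the kinesins apart. The kinesin changes ranged from -0.19 to 0.17. Of the 24 probesets, 17 had a mean intensity under 100, near or below the array medians. Of the 2 brightest kinesin probesets, nearly equal in mean intensity, that of the axonal transport kinesin kif1b had 655, 666 and 677 in colonized pools, against 637, 622 and 704 in germ-free pools (change 0.027, 95% interval -0.17 to 0.23). That of the cytokinesis kinesin kif20a had 608, 626 and 616 in colonized pools, against 696, 667 and 756 in germ-free pools. Its groups did not overlap, yet the change of -0.19 ± 0.09 was not called (adjusted p = 0.412), and a second kif20a probeset had -0.0022.

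The neuronal heavy chain gene kif5aa had 228, 230.2 and 246 in colonized pools, against 242, 211 and 261 in germ-free pools (change -0.016). The depolymerase gene kif2a had 279, 267 and 282 in colonized pools, against 258, 241 and 252 in germ-free pools; it did not overlap between groups and was not called (change 0.12, adjusted p = 0.603). The 2 probesets of the spindle kinesin kif15, both dim, changed by 0.17 and -0.12, and 3 probesets of the depolymerase kif2c by 0.11, -0.0084 and -0.15. A second, dim kif1b probeset changed by 0.021. The mitotic genes kif11 (0.10), kif14 (-0.046), kif18a (-0.016), kif23 (0.042 and -0.0020) and kif4 (0.0038 to 0.089), the ciliary genes kif3a (-0.034) and kif19 (0.094), and kif7 (0.0097), a Hedgehog pathway component, lay within this range, as did kif20bb (-0.075 and -0.012).

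Of the dynein genes, 1 of 15 probesets fell, against 0.413% called lower over all probesets. The heavy chain gene dync1h1, which encodes the motor subunit, was called on its dimmer probeset, at 39.9, 47.2 and 35.1 in colonized pools, against 61.8, 67.8 and 74.4 in germ-free pools. The groups did not overlap (log2 change -0.46 ± 0.10, limma adjusted p = 0.0436), but all 6 values lie below the array medians. Its second, brighter probeset had overlapping groups, at 122, 135 and 108 in colonized pools and 134, 108 and 101 in germ-free pools (change 0.074, adjusted p = 0.832). Within arrays the 2 probesets differed by -0.54 (exact permutation p = 0.1, the smallest possible, and 0.157 adjusted over the 11 pairs). This pair was picked with 1 called and 1 uncalled probeset, so a difference was largely set by that choice.

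The other dynein core chains were not called. The light intermediate chain genes dync1li1 and dync1li2 changed by 0.24 ± 0.13 and -0.025 ± 0.12, the 2 probesets of the intermediate chain gene dync1i2b by 0.081 and 0.013, and dync2i2, of the dynein of cilia, by -0.021. Among light chains, dynlrb1, the roadblock subunit, had 273, 421 and 442 in colonized pools, against 508, 476 and 505 in germ-free pools. Colonized replicate 1 stood below the rest, and the change of -0.39 ± 0.16 was not called (adjusted p = 0.313; -0.19 without that pool). The brightest light chain, dynll1, had 513, 549.6 and 614 in colonized pools, against 632, 464 and 698 in germ-free pools, an overlap (change -0.077). The remaining 6 light chain probesets changed by -0.16 to 0.055.

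In dynactin, the complex that links dynein to cargo, dctn2 had 295, 307 and 354 in colonized pools, against 255, 258 and 262 in germ-free pools. It was the member with the largest positive change and did not overlap between groups, but it was not called (0.27 ± 0.10, adjusted p = 0.277). The other dynactin gene, dctn5, changed by 0.027.

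**Figure D2:**
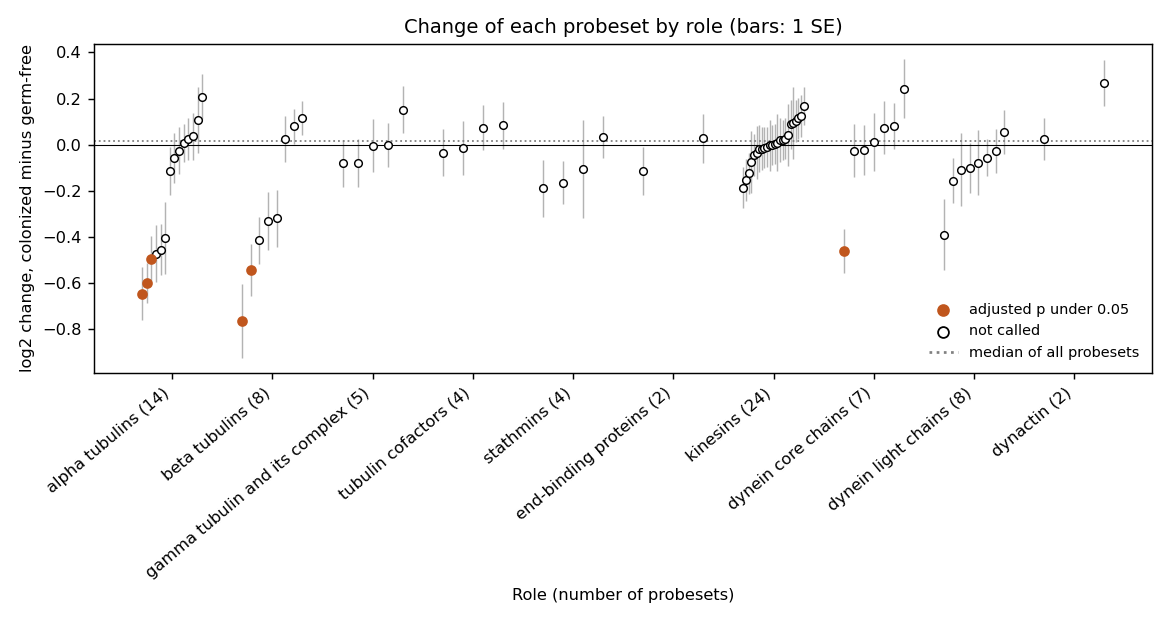
Log2 change (colonized minus germ-free, bars 1 SE) of all 78 probesets by role, with the number of probesets in brackets; filled points passed an adjusted p under 0.05. The called points are 3 alpha tubulin, 2 beta tubulin and 1 dynein core chain probeset, all below 0, and the kinesins lie between -0.19 and 0.17.

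Other microtubule genes, each counted on its brightest probeset by mean log2 value, were not called in any of 5 lists. The lists were covered in part. A probeset was found for 14 of 34 microtubule-associated, 10 of 19 severing and modifying, and 16 of 19 chaperonin and prefoldin symbols. For motor adaptors it was 10 of 22, and for axonemal dyneins and cilia 16 of 32. Of 14 microtubule-associated proteins 0 passed, with a median of 0.044 and 1 higher at an unadjusted p under 0.05. That gene was mid1ip1l, with 430.1, 523 and 452 in colonized pools and 335, 299 and 340.02 in germ-free pools (log2 change 0.48 ± 0.11, limma adjusted p = 0.0547); its mammalian relatives are also known as regulators of fatty acid synthesis. In the list, 1 gene was called higher without germ-free replicate 3, among probesets with a mean intensity of at least 100, without the intensity trend and with array weights, and 0 under the other alternatives. The neuronal tau gene maptb had 96.7, 159 and 143 in colonized pools, against 156, 159.8 and 183 in germ-free pools, with colonized replicate 1 lowest (change -0.28 ± 0.14, adjusted p = 0.443).

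Of 10 severing and tubulin modifying enzymes 0 were called and 0 passed without adjustment, with a median of 0.023. Among them ttc5, a factor of tubulin mRNA decay in mammalian cells, had 121, 107 and 118 in colonized pools, against 104, 101 and 103 in germ-free pools without overlap (change 0.13, adjusted p = 0.580). The chaperonin and prefoldin genes, whose products fold tubulin and actin, had 0 of 16 called and 0 unadjusted, and a median of -0.060. Of 10 kinesin light chain and adaptor genes 0 were called and 3 were higher unadjusted (klc4, ndel1b and nudc, at 0.31, 0.23 and 0.23). Of 16 axonemal dynein and cilia genes 0 were called and 1, the intraflagellar transport gene ift80, was higher unadjusted (0.27 ± 0.09). In 5 of these 16 and in 3 of the 10 adaptor genes, every colonized pool lay above every germ-free pool, and in 0 of either list below. Over all probesets these shares were 12.5% above and 7.08% below. Beside the counts of all 5 lists, 4.68% of all probesets were lower and 8.54% higher unadjusted, and 1.7% were called.

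Markers of the cell types that hold many microtubules were read beside the tubulins. Of 23 neuronal genes 0 were called, but 7 were lower and 0 higher at an unadjusted p under 0.05, in 8 every colonized pool lay below every germ-free pool, and 18 had a change below 0. Over all probesets, 4.68% were lower and 8.54% higher unadjusted, in 7.08% every colonized pool lay below, and 44.8% had a change below 0. With quantile normalization, a replicate block or germ-free replicate 2 left out, 1 neuronal gene was called lower, and with array weights 4. Their median was -0.16, but -0.073 without germ-free replicate 1 and -0.26 without germ-free replicate 2. Their summed intensity was 10993 to 11288 in colonized pools, against 11897 to 13076 in germ-free pools, without overlap. Bright genes weigh most in this sum, and sncb and atp1a3a among them had large falls, so it does not show a fall across the list. The list genes named here and above that were not called were chosen after their values were seen. The synuclein gene sncb had 895, 1020.4 and 1041 in colonized pools, against 1344, 1239.5 and 1321 in germ-free pools (change -0.39 ± 0.09, adjusted p = 0.0620). The sodium pump gene atp1a3a had 484, 577 and 276 in colonized pools, against 895, 737 and 788 in germ-free pools (-0.87 ± 0.21, adjusted p = 0.0838). The pan-neuronal genes elavl3 and elavl4 had changes of -0.027 and -0.033, with overlapping groups. Synaptic genes differed among themselves. The groups overlapped for sypa, syt1a and snap25a, with changes of 0.0017, 0.094 and -0.058. For sypb and snap25b every colonized pool lay below every germ-free pool, with changes of -0.27 and -0.22 (limma adjusted p = 0.240 and 0.325). The part of the neuronal list in the tubulin values was not tested.

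Photoreceptor genes, from a list known from earlier results to be lower, fell in 5 of 13 cases (opn1mw1, opn1sw2, gnat2, gngt2a and gnb3b). Their median was -0.44, with summed intensities of 10472 to 12949 in colonized pools, against 14541 to 16154 in germ-free pools. At an unadjusted p under 0.05, 8 were lower and 1 higher. The higher one, rbp4l, changed by 0.20 ± 0.08, with every colonized pool above every germ-free pool (limma adjusted p = 0.307). The part of the photoreceptor list in the tubulin values was not tested. With 1 of colonized replicates 1 and 2 or germ-free replicate 1 left out, 1 photoreceptor gene was called. Of 24 dividing-cell genes 0 were called, 1 was higher unadjusted, and the summed intensity was 3334 to 4199 in colonized pools, against 3544 to 4228 in germ-free pools. Of 10 glial genes 0 were called, with 1 lower and 2 higher unadjusted, and their median was 0.073. Among the other tissues, 0 of 12 muscle genes were called (1 lower and 2 higher unadjusted). Of 10 enterocyte genes 4 fell (6 lower and 1 higher unadjusted). The higher one, vil1, changed by 0.46 ± 0.14, with every colonized pool above every germ-free pool (limma adjusted p = 0.173). Of 13 neutrophil and macrophage genes 7 rose (11 higher and 0 lower unadjusted). Over all probesets, 0.413% were called lower and 1.28% higher, with 4.68% lower and 8.54% higher unadjusted. Only 2 of 6 ciliated-cell genes were measured, with 0 called and 0 unadjusted. The number of enterocyte genes called lower was 1 without colonized replicate 2, and 2 without colonized replicate 1 or germ-free replicate 1. The measured ciliated-cell genes, tekt1 and spag6, are also in the cilia list above. Of the listed genes, 0 were at an intensity of 0.

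**Figure D3:**
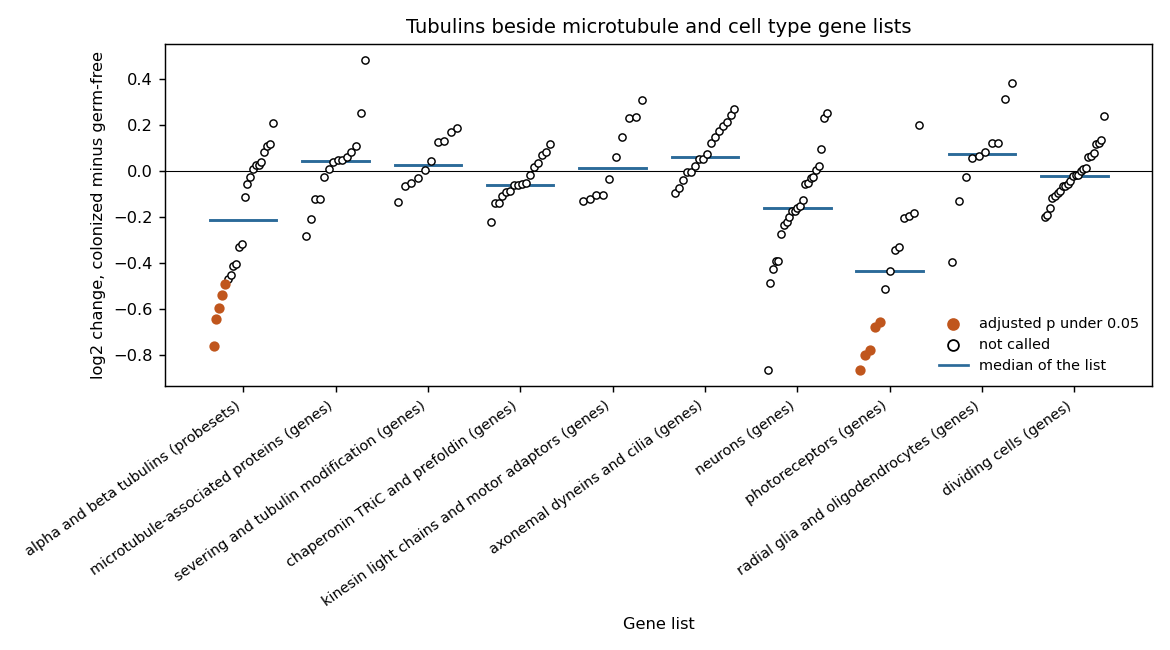
Log2 change (colonized minus germ-free) of the 22 alpha and beta tubulin probesets and of the genes in 9 lists; filled points passed an adjusted p under 0.05 and horizontal lines are medians. Medians are -0.21 for the tubulin probesets, -0.16 for neurons and -0.44 for photoreceptors, and between -0.060 and 0.073 for the other lists. The tubulin median counts probesets, and some tubulin genes have several, whereas the lists count each gene on its brightest probeset only. The tubulin median therefore cannot be compared directly with those of the lists.

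The calls differed in how often they were kept with 1 pool left out. Such fits have fewer arrays, so a lost call does not show that it rested on that pool. Over all probesets, 64 were called lower with all pools. Without colonized replicate 1, colonized replicate 2 or germ-free replicate 1, this number was 22, 16 and 25. The called tuba2 probeset kept an adjusted p under 0.05 in 5 of 6 fits with 1 pool left out, the exception being colonized replicate 2 (adjusted p = 0.0634), and its change stayed between -0.62 and -0.57. The brighter tubb5 probeset and the dimmer called tuba1 probeset kept it in 3 of 6, and were lost without colonized replicate 1, colonized replicate 2 or germ-free replicate 1 (highest adjusted p = 0.223 and 0.122). The brightest tuba1 probeset kept it in 2 of 6; it was lost without any one of these 3 pools or germ-free replicate 2 (highest adjusted p = 0.206). The dimmer tubb5 probeset and dync1h1 kept it in 0 of 6 (adjusted p 0.0524 to 0.223 and 0.0680 to 0.167). All 6 changes stayed below 0 in every fit. Colonized replicate 3 was the highest colonized pool in 6 of the 9 tubulin probesets without overlap, in 47 of all 78 members and in 6934 of all 15502 probesets. Without this pool 5 members were called, 4 of them among the 6.

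**Figure D4:**
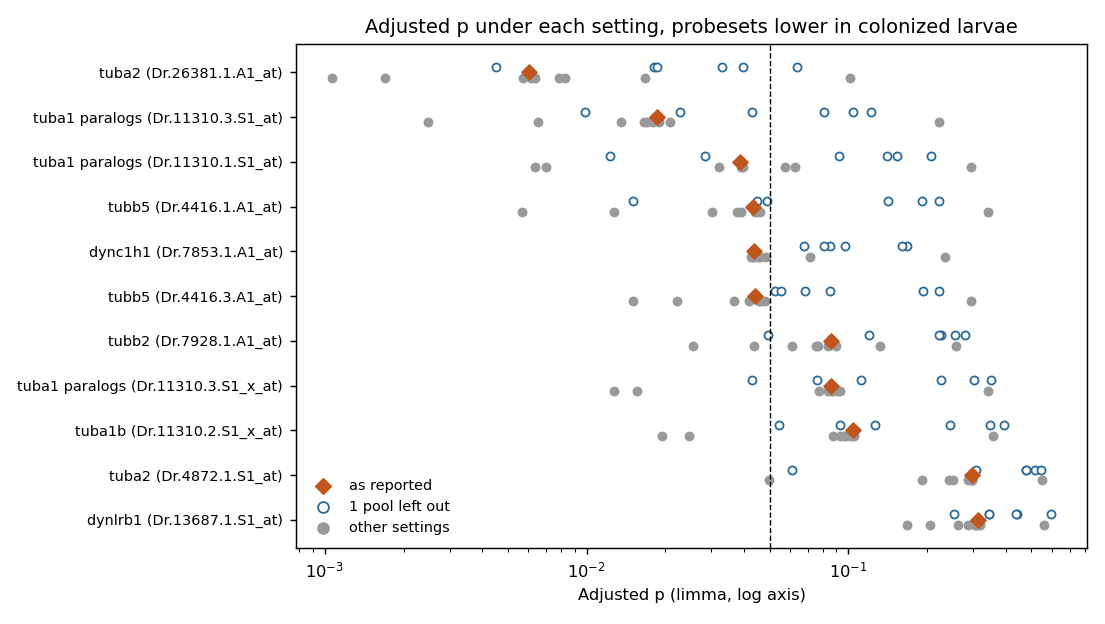
Adjusted p (limma, log axis) of the 6 called probesets and of 5 others that were lower in every colonized pool at an unadjusted p under 0.05, as reported (diamonds), with 1 pool left out (open circles) and under other settings (grey); the dashed line is 0.05. For the called tuba2 probeset (top line) 5 of 6 open circles lie left of the line, and for dync1h1 0 of 6.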

How the data were processed

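RNA of 6 pools of whole larvae (12 ug per pool, 20 ug of biotinylated cRNA per array) was hybridised to Affymetrix arrays, per the labels' protocols. The authors deposited 1 linear intensity per probeset and array, which the design text of the series says came from invariant-set normalization and the PM-MM model of dChip; present calls were not used here. Replicates are pools, and their number limits the precision.

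Of 15617 probesets, 115 controls were left out and 15502 tested, with no filter on dim ones; 47 of the 78 members had a mean intensity of at least 100. Symbols came from the platform annotation, updated through Entrez identifiers with the RefSeq table of GRCz12tu (10711 of 10795 single symbols matched, all 74 of the members; 0 member symbols changed). RefSeq lists 115 protein-coding symbols under the same rule, of which 53 have a probeset with 1 symbol; of the others, tuba1a, tuba1c and tubgcp5 were read only through shared probesets, and the rest were not analysed here.

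Log2(intensity + 32) was fitted with the group as the only term in limma 3.58.1 (R 4.3.3; moderated variances with an intensity trend, two-sided, Benjamini-Hochberg over 15502 probesets). Changes on this scale understate those of dim genes. The fit was tested on simulated data. Named probesets are all alpha and beta tubulins, all called members, those without overlap at an unadjusted p under 0.05, and in each role the 4 brightest and the 4 with the largest change; other members are given by value too. Members and lists were chosen with earlier results of these data known. Alternatives were pseudocounts of 16 and 100, quantile normalization, a mean intensity of at least 100, other variance models, array weights, a replicate block and leaving out each pool.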

Additional observations from a re-analysis of the deposited data

How the results depend on the processing

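All 6 called members stayed below 0 under every alternative that tested them, and 0 members were called higher in any (limma; 1 to 3 higher at an unadjusted p under 0.05). With 1 pool left out, the number of members called lower ranged from 0 to 5, against 6 with all pools, and the counts over all probesets from 98 to 326 higher and from 16 to 84 lower, against 199 and 64. It was 1 without colonized replicate 1 or germ-free replicate 1 and 0 without colonized replicate 2, where 9 or 10 were lower at an unadjusted p under 0.05. Without moderated variances 0 members were called (10 unadjusted), and 4 probesets were higher and 1 lower in all; this fit has the fewest degrees of freedom. With array weights 10 members were lower, and 365 probesets higher and 204 lower. The weights were lowest for germ-free replicates 3 and 2 (0.50 and 0.61). They were highest for germ-free replicate 1 and colonized replicate 2 (1.89 and 1.84). The cause of the larger counts was not tested. After quantile normalization 9 members were lower, adding tubb2, tuba1b and a shared tuba1 probeset, the member median was -0.056 against -0.015, 120 probesets were lower in all, and 61.4% of calls were higher, against 75.7%; 19 of 22 tubulin probesets were then below 0, against 14. Restricting to a mean intensity of at least 100 left the dimmer tubb5 probeset and the called dync1h1 probeset untested, and the other 4 called members stayed called. Deviations of same-numbered pools correlated at -0.084, 0.097 and 0.069. With 3 pools a group, these values cannot tell whether the numbers pair the pools. With the number as a replicate block, 4 members were called, without the brightest tuba1 probeset (limma adjusted p = 0.0623) and dync1h1 (0.0716). Over the 57 named probesets, 842 values under alternatives included 32 that lost a call, 9 that gained one and 0 that reversed a call.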
